A study of Mus musculus with 14 samples.

Results

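The 6 mammary tumours that grew in collagen gels were compared with the 6 that grew in LysM-Cre mice, by the number of sequence variants that whole-exome sequencing found in each gene. These are 12 of the 14 samples of the study, chosen by their labels alone; the other 2 are wild-type tails, not analysed here. The question of the study is whether tension of the tissue and oxidative stress are tied to DNA damage in p53null mammary tumours, a transplant model in which fragments of mammary gland that lack the tumour suppressor Trp53 give rise to tumours. All 12 tumours carry the genotype label Balb/c mammary p53null, and all were taken at a maximum diameter of 2 cm.

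In the gel experiment the hosts were wild-type females of 3 to 4 weeks. The fourth mammary fat pad was cleared and filled with rat tail collagen 1 holding 20% basement membrane extract, and then received a fragment from a syngeneic p53null mouse of 8 to 10 weeks. The collagen was left uncrosslinked in the soft group (A1, A2 and A3) and crosslinked with 500 mM L-ribose in the stiff group (A7, A8 and A9). In the host experiment a p53null fragment was placed in the fat pad of LysM-Cre mice that were wild-type (WT) for GPX4 (B1, B2 and B3) or GPX4 knockout (KO; B4, B5 and B6). LysM-Cre is Cre recombinase driven from the Lyz2 locus, which is active in macrophages and other myeloid cells, so the knockout lies in host cells and not in the implanted fragment. The labels give neither the strain nor the age of the LysM-Cre mice, nor which tumours share a fragment donor. The gel, the kind of host and, since the labels name either of a pair of NovaSeq models for the whole set, possibly the sequencing instrument change together from one experiment to the other and cannot be told apart.

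An exome is read against the mouse reference genome, which comes from the strain C57BL/6J. Inherited alleles that differ from it can therefore be listed as variants beside somatic mutations and false calls. Inherited alleles lie together in haplotypes, long runs of neighbouring genes passed on as a unit, and a region bred in from another strain gives a run of genes whose variant counts differ together. For this reason single genes, runs of neighbouring genes and genes with textbook strain alleles were each described. Whether a variant is inherited or somatic was not tested, as the tables give counts without positions, allele fractions or read depth, so the depth behind each count is unknown. No sequence is printed for the same reason.

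The counts are split by the impact that snpEff, an annotation program, predicts. HIGH covers stop-gained and frameshift changes, MODERATE covers missense changes, LOW covers synonymous changes, and MODIFIER covers mostly intronic and flanking changes. Protein-altering variants here are HIGH plus MODERATE, and coding variants add LOW. Where 6 values follow each other without names, they stand in the order A1, A2, A3, A7, A8, A9 for the gel tumours and B1 to B6 for the host tumours. A9 and B5 stood apart within their experiments: HIGH variants were 13.6 per 100 coding variants in A9 against 16.2 to 17.1 in the other gel tumours, and 14.2 in B5 against 16 to 17 in the other host tumours. Results that rest on these tumours are given with and without them. The labels call each tumour a separate sample, so p-values measure only the spread between these tumours. Trp53 had protein-altering variants in 3 of the 12 tumours (2 in B1, 1 each in A2 and B4), and coding variants of Gpx4 and Lyz2 were at 0 throughout. A deleted allele does not appear in counts of small variants, so these values check no label.

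Host tumours carried more variants on average, with a wide spread. Protein-altering variants ranged from 9000 to 11672 in gel tumours, with a median of 10112, and from 8317 to 16544 in host tumours, with a median of 13316. The means were 10220 ± 908 and 12862 ± 2950 (SD, n = 6 each), and the groups overlapped because B4 and B5 lay within or below the gel range (exact permutation p = 0.0649, adjusted 0.114 over 14 measures). The gap was wider in MODIFIER variants, with 386192 ± 41205 in gel and 532349 ± 134651 in host tumours, a 1.38-fold difference (exact permutation p = 0.0368, adjusted 0.114). Without B5 the protein-altering difference between the means was -3551 in place of -2642 (gel minus host, exact permutation p = 0.00433), and without both A9 and B5 it was -3307 (exact permutation p = 0.0159). B5 had the lowest count of the host tumours, so leaving it out widens the gap. Leaving out any other single tumour gave an exact permutation p from 0.0519 (without B4) to 0.132 (without B1).

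The balance between coding and non-coding variants separated the experiments more sharply than the totals did. Gel tumours had 2.60, 2.58, 2.60, 2.72, 2.73 and 2.68 protein-altering variants per 100 MODIFIER variants. Host tumours had 2.38, 2.38, 2.46, 2.54, 2.49 and 2.34. Every gel tumour lay above every host tumour, A9 and B5 included. The means were 2.65 ± 0.0674 and 2.43 ± 0.0759 (SD, n = 6 each; exact permutation p = 0.00216, the smallest that 924 assignments can give, adjusted 0.0303). Leaving out each tumour in turn gave differences from 0.203 to 0.243 (exact permutation p from 0.00216 to 0.00433), and without both A9 and B5 the groups still did not overlap (exact permutation p = 0.00794). The soft tumours lay above the WT-host tumours and the stiff above the KO-host tumours, each pair of groups without overlap at the smallest p that 3 against 3 allows, an exact permutation p of 0.1. The ratio within the coding part did not move: HIGH variants were 16.2 per 100 coding variants in both experiments (exact permutation p = 0.998), and the tables give no depth with which to set the coding and non-coding parts side by side.

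**Figure D1:**
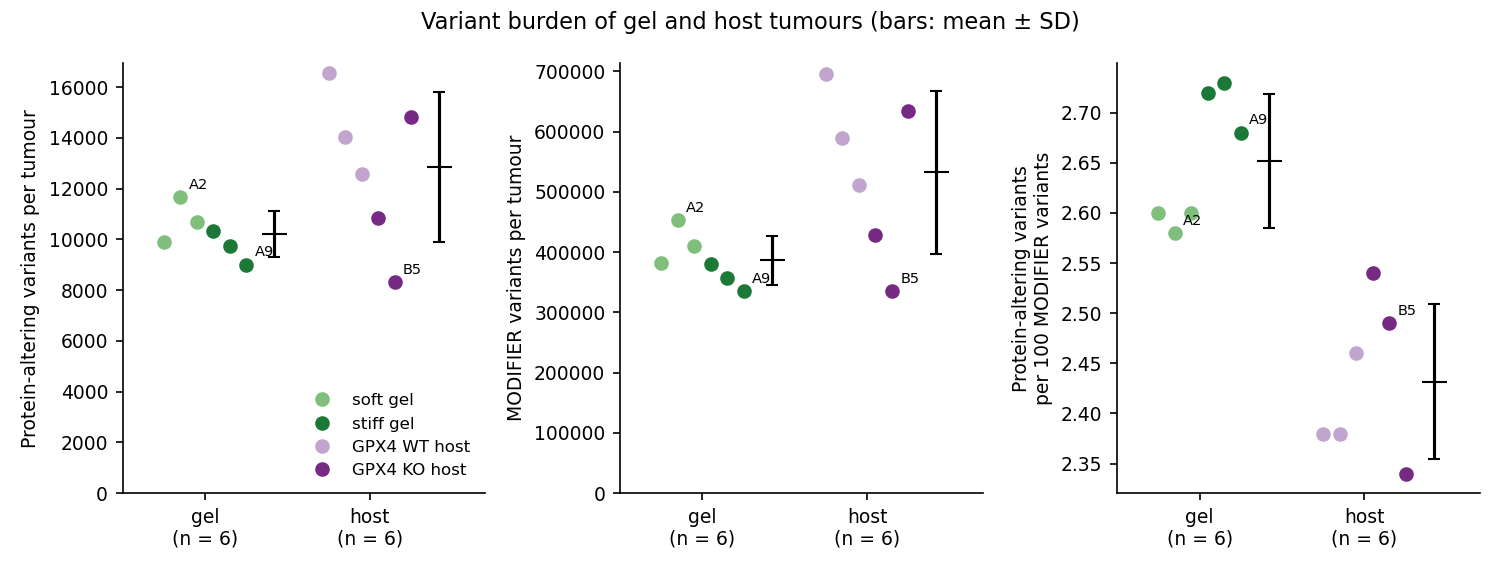
Protein-altering variants, MODIFIER variants and protein-altering variants per 100 MODIFIER variants (y axes) in each of the 6 gel and 6 host tumours, coloured by group, with mean ± SD beside each experiment. The 2 totals overlap between experiments, while the ratio lies between 2.58 and 2.73 in gel tumours and between 2.34 and 2.54 in host tumours; its axis does not start at 0.

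Effect classes were compared as counts and per 100 coding variants, and the 2 that passed on the latter scale lay outside the coding sequence. None of 21 effect classes passed the exact permutation test as a count (0%, Benjamini-Hochberg adjusted), although 17 did without A9 and B5. Per 100 coding variants 2 of the 21 classes passed (9.52%), intron and 3′ UTR variants. Intron variants were 1711, 1737, 1725, 1647, 1623 and 1599 per 100 coding variants in gel tumours and 1944, 1929, 1860, 1768, 1742 and 1965 in host tumours. The experiments did not overlap, though B5 at 1742 lay close to A2 at 1737 (means 1674 ± 58.2 and 1868 ± 94.9, exact permutation p = 0.00216, adjusted 0.0455). As introns make up most MODIFIER variants, this is not independent of the ratio above. 3′ UTR variants averaged 73.0 ± 1.44 in gel and 75.2 ± 1.03 in host tumours per 100 coding variants, with overlap (exact permutation p = 0.00433, adjusted 0.0455). Missense variants, which change an amino acid, were 41.2 and 41.1 per 100 coding variants (exact permutation p = 0.978). Synonymous variants, which do not, were 32.3 and 32.2 (exact permutation p = 0.781). Missense and synonymous variants make up most coding variants, so their shares on this scale could move little. As counts, the gel minus host difference was -20.2% of the host mean for missense and -19.7% for synonymous variants. It was -22.6% for 3′ UTR and -29% for intron variants. Stop-gained variants, which cut a protein short, were 2.85 ± 0.0815 in gel and 2.74 ± 0.0808 in host tumours and did not pass (exact permutation p = 0.0411, adjusted 0.288).

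Tumours of the same experiment had more altered genes in common on average, host pairs more so than gel pairs. The Jaccard index, the genes altered in both tumours of a pair as a share of those altered in either, averaged 0.449 over the 15 gel pairs and 0.469 over the 15 host pairs, against 0.440 over the 36 mixed pairs. Pairs within an experiment exceeded mixed pairs by 0.0188 (exact permutation p = 0.00649), and by 0.0256 without A9 and B5 (exact permutation p = 0.00794). The ranges overlapped, from 0.4 to 0.495 in gel pairs, 0.405 to 0.513 in host pairs and 0.377 to 0.471 in mixed pairs. Among soft and WT-host tumours alone, host pairs averaged 0.502, while gel pairs at 0.452 were not above mixed pairs at 0.455. Of the 12 tumours, A2 and B5 were closer to the other experiment than to their own. A2 averaged 0.447 with the other gel tumours and 0.456 with the host tumours, and B5 averaged 0.422 with the other host tumours and 0.426 with the gel tumours. A2 had the most altered genes of the gel tumours (4429) and B5 the fewest of the 12 tumours (3507). The part of these numbers in the index was not tested.

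Of the 21312 protein-coding genes, 11835 had a protein-altering variant in at least 1 tumour and 1593 had one in all 12. Genes altered only in host tumours numbered 2893, of which 1875 were altered in a single tumour, and genes altered only in gel tumours numbered 2466, of which 1980 were altered in a single tumour. In the 6476 genes altered in both experiments, the mean count per tumour was 9594 in gel and 11750 in host tumours. That gap of 2156 was most of the difference in protein-altering variants, but these genes also held most of the variants of both experiments. In genes altered only in their own experiment, the mean count was 626 in gel and 1112 in host tumours.

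No single gene passed the test across all genes. edgeR's quasi-likelihood test on 6830 genes called 0 (0%) at a Benjamini-Hochberg adjusted p under 0.05, with 46 genes higher in gel tumours (0.673%) and 368 higher in host tumours (5.39%) at an unadjusted p under 0.05. The median log2 fold change over all genes (gel over host) was -0.34 and became -0.06 when each tumour was scaled to its total, with 114 and 353 genes then at an unadjusted p under 0.05. DESeq2 called 1 gene (0.0146%), Stk11ip, which encodes a protein that binds the kinase Stk11 (log2 fold change 5.37, Benjamini-Hochberg adjusted p = 0.0304). Without A2, edgeR called 3 genes, Stk11ip at a log2 fold change of 5.73, the muscle kinase gene Speg at 2.51 and Mroh2a at -2.17. These 3, named after their values were seen, lie on chromosome 1.

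Genes altered in every tumour of one experiment and in none of the other were few, and lay on the host side. There were 7 such genes in host tumours (0.0591% of the 11835 altered genes) and 0 in gel tumours (0%). Amdhd1, an enzyme of histidine breakdown, had 5, 9, 11, 2, 6 and 1 protein-altering variants in the host tumours. Ercc6l2, a chromatin remodeller linked to DNA repair, had 6, 4, 3, 6, 2 and 9. Ring1, a subunit of the Polycomb complex that ubiquitylates histone H2A, had 3, 1, 4, 1, 7 and 1. All 6 gel tumours stood at 0 in each, so these groups separate by presence while the size of the host count varied widely. The mitochondrial nucleotide kinase gene Cmpk2 had 1, 1, 3, 2, 2 and 5, the nuclease gene Ankle1 had 2, 1, 1, 3, 1 and 2, and Exoc5, a subunit of the exocyst that tethers secretory vesicles, had 1, 3, 1, 1, 1 and 3. The lipid flippase gene Atp10b had 1 in each host tumour. edgeR's adjusted p (Benjamini-Hochberg) was 0.648 for each of the 7. Altered in at least 5 of 6 tumours of one experiment and in none of the other were 44 genes on the host side (0.372%) and 5 on the gel side (0.0422%). The 5, named for their small number, were Eml2, Fkbp7, Inha, Pfn1 and Tmem198, and Inha and Tmem198 lie in the chromosome 1 run described below.

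The kinds of variant in these genes were mixed. In host tumours Amdhd1 had 4, 4, 8, 2, 3 and 1 missense and 2, 2, 3, 1, 1 and 1 synonymous variants, and the gel tumours had 0 of either kind. Its introns, in contrast, held 16, 33, 20, 12, 0 and 19 variants in gel tumours and 51, 39, 23, 27, 33 and 41 in host tumours, so that the experiments overlapped there. Ercc6l2 had missense, synonymous and, in 5 of 6 host tumours, stop-gained variants, while its intron variants averaged 28.8 ± 11.2 in gel and 69.7 ± 28.5 in host tumours. In Amdhd1 and Ercc6l2, then, protein-altering variants were absent from gel tumours while introns carried variants in 5 and 6 of the 6. Every gel tumour also had intron variants in Exoc5, at 41, 57, 29, 36, 13 and 15, and in Atp10b, at 7, 13, 6, 4, 2 and 9. Cmpk2 had 2, 5, 6, 9, 0 and 0 in gel tumours. Few gel tumours had intron variants in Ring1, at 0, 0, 1, 0, 2 and 0, or in Ankle1, at 0, 0, 0, 3, 0 and 0.

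Counting also genes that were altered in both experiments, 14 genes had every host tumour above every gel tumour (0.118%) and 0 had the reverse (0%). Of the 7 not yet described, 6 are named here, chosen after their values were seen: Mroh2a, Stt3b, Ralgapa2, Mapk8ip3, Tnn and Bcl9l. Mroh2a, of unclear function, had 4, 11, 4, 5, 1 and 2 in gel and 17, 15, 15, 13, 14 and 17 in host tumours (log2 fold change -1.85, SE 0.29, edgeR Benjamini-Hochberg adjusted p = 0.628). Its host tumours were close to each other, and A2 was the highest gel tumour. Stt3b, the catalytic subunit of an oligosaccharyltransferase that adds N-glycans to proteins, had 1, 0, 0, 1, 0 and 0 against 6, 2, 7, 2, 3 and 12. Mapk8ip3, a scaffold of the JNK pathway, had 9 to 12 in gel and 13 to 15 in host tumours. The 14 genes were spread over 11 chromosomes, and 3 of them lay in a run of neighbouring genes called below. Their MODIFIER variants had a higher mean in host tumours in 14 of 14, yet overlapped between experiments in each.

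**Figure D2:**
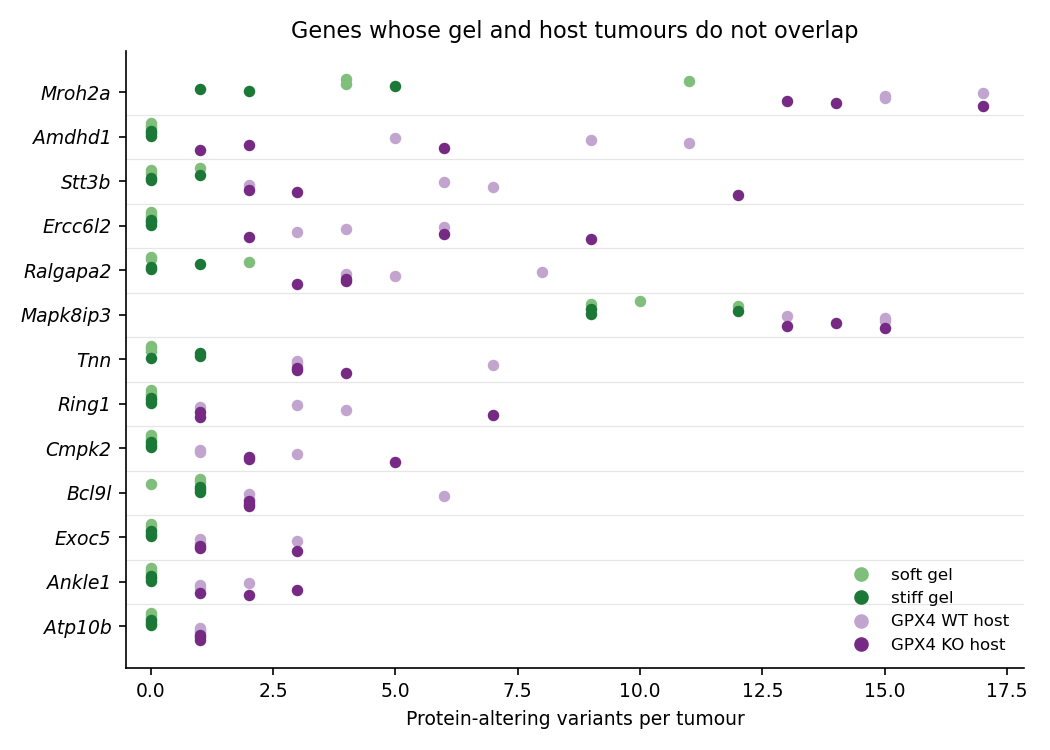
Protein-altering variants per tumour (x axis) in 13 of the 14 genes (y axis) whose 6 host tumours all lie above the 6 gel tumours, 1 point per tumour, coloured by group. In 7 genes every gel tumour is at 0; Mroh2a ranges from 1 to 11 in gel and from 13 to 17 in host tumours.

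Some blocks of neighbouring genes passed the test across all blocks, while no single gene passed in the main fit. These tests are not alike, since single genes were tested on protein-altering variants and blocks pool the coding variants of 20 genes. Coding variants were summed over blocks of 20 consecutive protein-coding genes in the order of a reference gene table, and each block is named by its first and last gene. Of 1016 blocks tested, edgeR called 3 higher in gel tumours (0.295%) and 31 higher in host tumours (3.05%) at a Benjamini-Hochberg adjusted p under 0.05. The median log2 fold change over all blocks was -0.29 (gel over host) and 0.03 after scaling each tumour to its total, which left 5 blocks higher in gel (0.492%) and 8 higher in host tumours (0.787%), 11 of these 13 also called unscaled. The 34 blocks lay on 17 chromosomes. In the 31 host blocks the host-to-gel ratio had a median of 1.96, between 1.43 and 4.07, and a median of 13 of the 20 genes had the higher mean in host tumours. These blocks were called on sums of the same counts, so the lean of their genes follows in part from the call. By protein-altering variants, 6296 of all 21312 genes had the higher mean in host tumours and 4146 in gel tumours. In 28 of the 31 a single gene made up less than 50% of the difference. Non-coding variants had the higher mean in host tumours in 31 of 31, against 78.6% of all tested blocks, and 0 of the 31 separated the experiments by their non-coding variants, against 0.394% of all blocks. The number of blocks called depended on which tumours entered: it was 178 without B5, 63 without A9 and B5, and between 6 and 20 when any 1 of A1, A2, A3, A7, A8, A9, B1, B2, B4 or B6 was left out. In 5 blocks the call held whichever single tumour was left out, and these are described next.

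**Figure D3:**
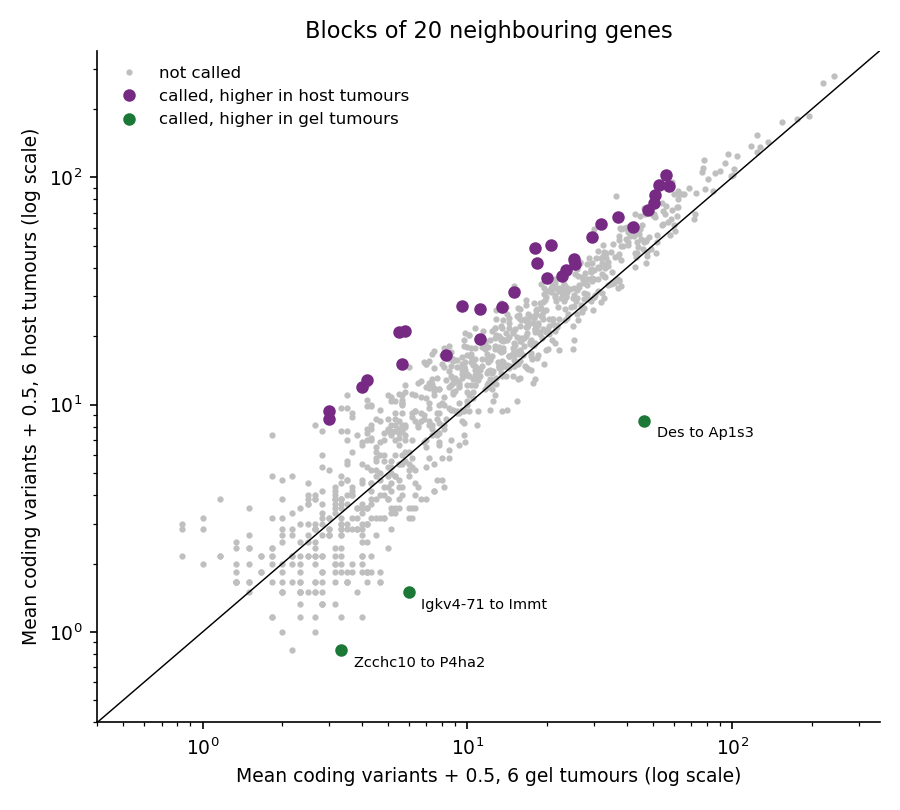
Mean coding variants per block of 20 neighbouring genes in the 6 gel tumours (x axis) and the 6 host tumours (y axis), both plus 0.5 on log scales; each point is 1 of 1016 blocks and the line marks equal means. The 31 blocks called higher in host tumours lie above the line among many uncalled ones, and the block Des to Ap1s3, at a mean of 46.0 in gel and 8.00 in host tumours, lies apart below it.

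The block with the smallest p was higher in gel tumours. Des to Ap1s3 on chromosome 1 had 59, 12, 52, 57, 49 and 47 coding variants in gel tumours and 14, 4, 9, 6, 8 and 7 in host tumours. A2 stood within the host range and the other 5 gel tumours far above it. The means were 46.0 ± 17.3 and 8.00 ± 3.41 (SD, n = 6 each), a 5.75-fold difference (log2 fold change 2.51, SE 0.34, edgeR Benjamini-Hochberg adjusted p = 0.00104). Without A2 the log2 fold change was 2.73, and between the soft and WT-host tumours alone, where A2 is 1 of 3 soft tumours, it was 2.17 and the test was not passed (edgeR Benjamini-Hochberg adjusted p = 0.0720). Stiff against KO-host tumours alone gave 2.84 (edgeR Benjamini-Hochberg adjusted p = 5.94e-04).

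The excess came from a short stretch of that block. Stk11ip had 15, 0, 20, 19, 20 and 24 coding variants in gel tumours against 1 in B1 and 0 in the other host tumours. Speg had 13, 2, 10, 13, 7 and 9 against 3, 2, 1, 2, 4 and 1. Obsl1, a cytoskeletal adaptor, had 9, 0, 7, 6, 7 and 4 against 1 in B1, 1 in B5 and 0 elsewhere. Inha, the alpha subunit of the hormone inhibin, had 6, 0, 2, 5, 6 and 1 and none in host tumours. In each of the 4 genes A2 was at or near the host level. The Stk11ip variants of the gel tumours included missense (6, 0, 7, 6, 6 and 8), synonymous (5, 0, 5, 5, 6 and 6) and frameshift variants (1, 0, 5, 5, 5 and 5). Intron variants separated the experiments in Speg, Stk11ip and Obsl1 but not in Inha, which had 3, 0, 3, 3, 3 and 3 in gel tumours and 0 in all host tumours. Speg had 71, 13, 58, 68, 74 and 87 intron variants in gel and 9, 7, 3, 2, 6 and 3 in host tumours, and Stk11ip had 29, 3, 24, 21, 31 and 38 against 1 or 2 in each host tumour. Even there A2 was nearer to the host tumours than to the other gel tumours. Further along the block the gaps were smaller. Farsb, a subunit of phenylalanyl-tRNA synthetase, averaged 2.17 coding variants in gel and 1.83 in host tumours. Ap1s3 had 4, 0, 2, 3, 0 and 0, Epha4 0, 1, 1, 0, 2 and 2 and Kcne4 0, 2, 0, 3, 0 and 0 in gel tumours, against none in host tumours. These 4 genes were named after their values were seen.

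A second pattern followed further along chromosome 1, in genes picked out after their values were seen. Dock10, a guanine nucleotide exchange factor, had 13, 0, 13, 16, 16 and 14 coding variants in gel tumours and 22, 7, 13, 0, 2 and 0 in host tumours. Its intron variants were 180, 16, 174, 172, 192 and 163 in gel tumours, 284, 81 and 229 in WT-host tumours and 10, 10 and 11 in KO-host tumours. Here the WT-host tumours were on the side of the 5 gel tumours, and A2 was on the side of the KO-host tumours. The serotonin receptor gene Htr2b had 6, 6, 6, 6, 8 and 10 coding variants in gel tumours, 7, 3 and 6 in WT-host tumours and 0 in each KO-host tumour, so A2 no longer stood apart. The blocks that hold these genes, Wdfy1 to Pid1 and Dner to Armc9, passed only after scaling (edgeR Benjamini-Hochberg adjusted p = 0.0435 and 0.0443, against 0.0724 and 0.194 unscaled). The tumours thus fell into different groups at Stk11ip, Dock10 and Htr2b, which share a chromosome.

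**Figure D4:**
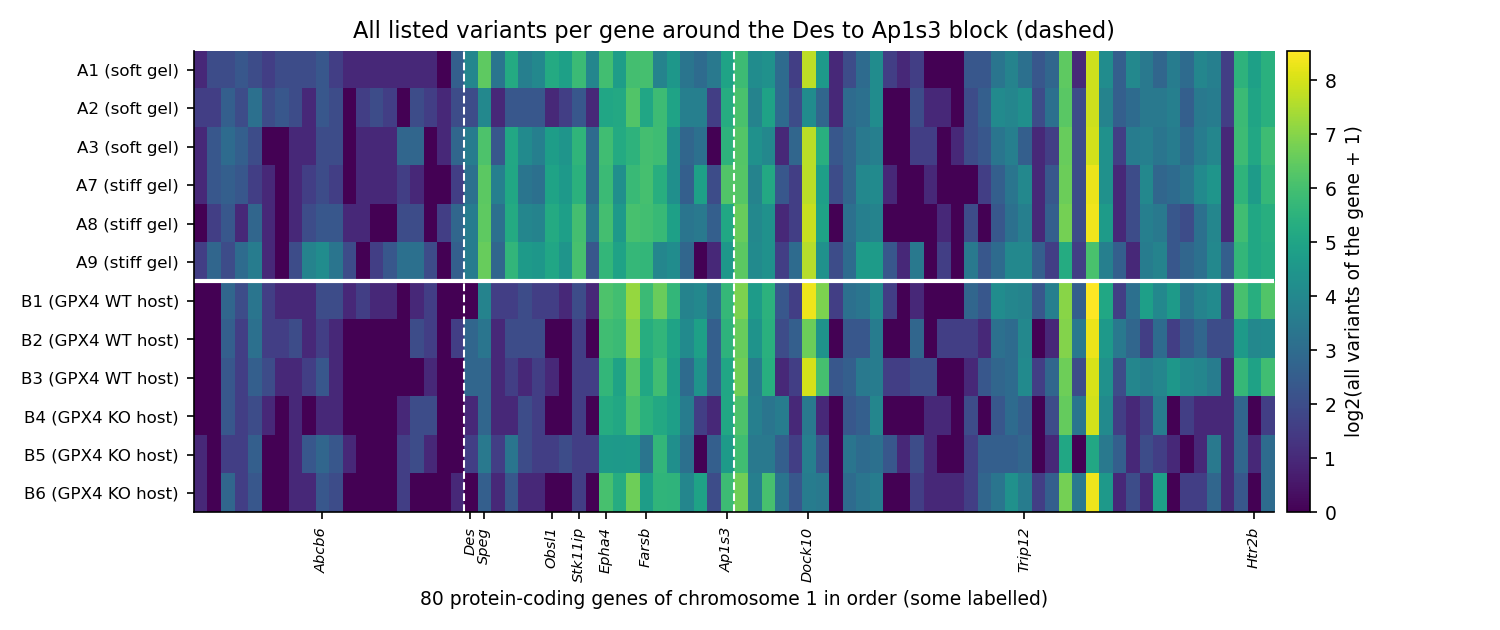
All listed variants per gene, as log2(count + 1) in colour, in the 12 tumours (y axis) along 80 consecutive protein-coding genes of chromosome 1 in order (x axis, some genes named); dashed lines bound the block Des to Ap1s3 and the white line parts gel from host tumours. From Speg to Stk11ip 5 gel tumours are brighter than A2 and the host tumours, and at Dock10 A2 and the KO-host tumours B4, B5 and B6 are darker than the rest.

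The other 4 blocks whose call held without any single tumour were higher in host tumours. Pla2g5 to Pax7 on chromosome 4 had 74, 67, 64, 37, 51 and 42 coding variants in gel tumours and 125, 117, 111, 100, 61 and 96 in host tumours. Only B5, at 61, fell among the gel tumours (means 55.8 ± 14.8 and 102 ± 22.6, log2 fold change -0.88, SE 0.14, edgeR Benjamini-Hochberg adjusted p = 0.00547). The giant ubiquitin ligase gene Ubr4 took the largest part of this difference, with 27, 15, 33, 16, 14 and 14 against 61, 40, 37, 36, 19 and 37. Pax7, a transcription factor of muscle stem cells, had 4, 0, 0, 0, 0 and 1 against 12, 6, 1, 7, 0 and 7.

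Mks1 to Nog on chromosome 11 had 19, 20, 31, 19, 20 and 12 coding variants in gel tumours and 67, 54, 54, 41, 22 and 61 in host tumours. B5 was again the host tumour among the gel values (means 20.2 ± 6.11 and 49.8 ± 16.2, log2 fold change -1.30, SE 0.23, edgeR Benjamini-Hochberg adjusted p = 0.00645). Of its 20 genes 17 had the higher mean in host tumours, which follows in part from the call on their sum. Coil, the scaffold of the nuclear Cajal body, had 10, 3, 0, 1, 3 and 0 against 17, 9, 7, 6, 3 and 11. Dgke, a diacylglycerol kinase, had none in gel tumours and 4, 3, 2, 1, 1 and 10 in host tumours. Mks1, a component of the transition zone of cilia, had 0, 1, 2, 2, 2 and 1 against 9, 7, 1, 5, 2 and 5.

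Hal to Nudt4 on chromosome 10, which holds Amdhd1, had 27, 49, 32, 34, 25 and 22 coding variants in gel tumours and 77, 69, 67, 49, 46 and 62 in host tumours. A2, B4 and B5 met at 46 to 49, and the other tumours were apart (means 31.5 ± 9.65 and 61.7 ± 12, log2 fold change -0.96, SE 0.17, edgeR Benjamini-Hochberg adjusted p = 0.00645). Besides Amdhd1, Fgd6, a guanine nucleotide exchange factor, had 3, 4, 7, 4, 3 and 5 against 8, 18, 10, 11, 6 and 14. The deubiquitylase gene Usp44 had 0, 0, 3, 2, 0 and 0 against 6, 6, 6, 2, 4 and 2. Hdx to Pcdh11x on the X chromosome had 6, 19, 18, 3, 3 and 5 in gel tumours and 33, 17, 22, 28, 19 and 41 in host tumours. A2 and A3 reached the lower host tumours while A1 and the stiff tumours did not (means 9 ± 7.46 and 26.7 ± 9.18, log2 fold change -1.85, SE 0.32, edgeR Benjamini-Hochberg adjusted p = 0.00645). In soft against WT-host tumours alone the log2 fold change was -0.74 (edgeR Benjamini-Hochberg adjusted p = 0.288).

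DESeq2, which estimates its own size factors, kept Des to Ap1s3, Hdx to Pcdh11x and Mks1 to Nog and not the blocks Pla2g5 to Pax7 or Hal to Nudt4 (Benjamini-Hochberg adjusted p = 0.101 and 0.124). Between stiff and KO-host tumours alone Pla2g5 to Pax7, Mks1 to Nog and Hal to Nudt4 did not pass (edgeR Benjamini-Hochberg adjusted p = 0.289, 0.388 and 0.350). With 3 tumours a side, B5 is 1 of the 3 KO-host tumours there. Hal to Nudt4 also missed between soft and WT-host tumours (edgeR Benjamini-Hochberg adjusted p = 0.0632), and Hdx to Pcdh11x missed with the experiment as the only term (0.0581).

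The remaining called blocks were less stable. Of the 31 host blocks, 4 had every host tumour above every gel tumour, against 0.591% of all blocks. Called blocks were chosen by these same counts, so a higher share among them follows from the choice and is no further support. The clearest was Iqcf4 to Tusc2 on chromosome 9, with 30, 45, 46, 33, 39 and 27 against 69, 66, 70, 49, 57 and 87 (edgeR Benjamini-Hochberg adjusted p = 0.0158, or 0.0524 scaled). It includes Rbm15b, a subunit of the complex that methylates adenosine in RNA, at a mean of 1.33 in gel and 7.50 in host tumours. Klra9 to Gm8882 on chromosome 6, of whose 20 genes 15 belong to multigene families or are predicted gene models, killer cell lectin-like and bitter taste receptors among them, had 11 to 22 in gel tumours and 10 to 74 in host tumours. Reads of similar copies can be placed on each other, so these counts are uncertain gene by gene. The other 2 gel blocks were small: Igkv4-71 to Immt on chromosome 6 averaged 5.5 ± 3.39 against 1.00 ± 1.26, and Zcchc10 to P4ha2 on chromosome 11 averaged 2.83 ± 0.753 against 0.333 ± 0.516 without overlap, a separation seen in 0.197% of all blocks (edgeR Benjamini-Hochberg adjusted p = 0.0365 and 0.0435). Their calls held in 3 and 1 of the 12 fits that left out 1 tumour. Immt, an organiser of mitochondrial cristae, supplied most of the former, with 5, 0, 8, 8, 1 and 0 against none. Across the 31 host blocks, A2 lay within the host range in 21 and B5 within the gel range in 23, and B1 lay within the gel range in 0. Over all genes A2 had the most coding variants of the gel tumours (19459). B5 had the fewest of the 12 tumours (14434) and B1 the most (27337). The part of these totals in the block counts was not tested.

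Around Lyz2, the locus that carries Cre in the LysM-Cre mice, host tumours had more coding variants than gel tumours in all hosts but B5. Over Lyz2 and its 20 neighbours on each side, coding variants numbered 8, 7, 5, 8, 8 and 5 in gel tumours and 36, 32, 38, 16, 4 and 27 in host tumours. Apart from B5, at 4, each host tumour was above each gel tumour. The means were 6.83 ± 1.47 and 25.5 ± 13.1 (SD, n = 6 each), a 3.73-fold difference, with 19 of the 41 genes higher in host and 5 higher in gel tumours. MODIFIER variants averaged 175 ± 48.6 and 298 ± 113, and B4 at 192 and B5 at 142 lay within the gel range of 110 to 231. The neighbours with the largest gaps were the predicted genes Gm9049 (0, 0, 1, 0, 0 and 0 against 6, 11, 9, 9, 0 and 11) and Gm9048 (0, 0, 2, 0, 0 and 0 against 8, 4, 7, 0, 0 and 4), members of a cluster of similar gene models and named after their values were seen. Gel minus host, they made up -7.5 and -3.5 of the mean difference of -18.7, and Gm9049 held 9 of the 16 variants of B4. Reads of similar copies can be placed on each other, so the place of B4 above the gel tumours is uncertain. Both called blocks of this region are higher in host tumours: Cnot2 to Gm32717, which holds Lyz2, and Gm32802 to Wif1, which is next to it (edgeR Benjamini-Hochberg adjusted p = 0.0391 and 0.0223, or 0.107 and 0.0310 scaled). Their calls held in 3 and 7 of the 12 fits that left out 1 tumour. Neither passed between stiff and KO-host tumours alone (edgeR Benjamini-Hochberg adjusted p = 0.596 and 0.627), and Cnot2 to Gm32717 also missed between soft and WT-host tumours (0.0704) and with the experiment as the only term (0.0585). Lyz2 itself averaged 1.33 MODIFIER variants in gel and 2.33 in host tumours. The labels do not give the share of host cells in a tumour sample, and the part of host strain in these counts was not tested.

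**Figure D5:**
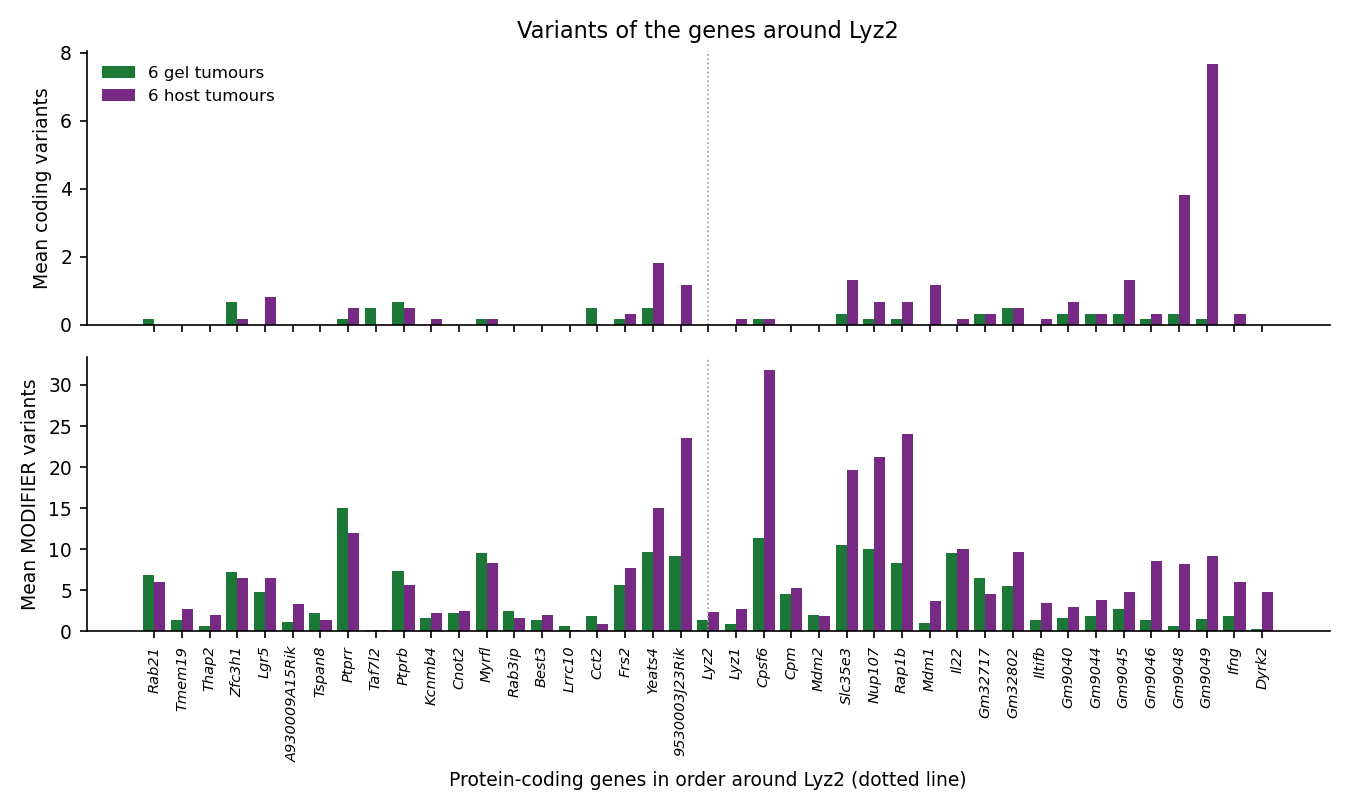
Mean coding variants (upper panel) and mean MODIFIER variants (lower panel) per gene in the 6 gel and 6 host tumours, for Lyz2 and the 20 protein-coding genes on each side in order (x axis). Host means exceed gel means mainly from Yeats4 onwards, with the tallest coding bars at Gm9048 and Gm9049.

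The corresponding neighbourhoods of the other target genes did not show this excess of host tumours in coding variants. The 41 genes around Gpx4 had 11, 12, 8, 9, 2 and 21 coding variants in gel tumours and 4, 8, 3, 5, 15 and 9 in host tumours, with full overlap. Their MODIFIER variants were higher in gel tumours, at 93 ± 58.7 against 54.3 ± 14.6, with overlap and with A9 the highest at 205. Of the 41 genes, 30 had the higher MODIFIER mean in gel and 6 in host tumours. The 41 genes around Trp53 had means of 42.5 ± 6.57 and 41.3 ± 8.78 coding variants, and of 447 ± 43 and 460 ± 70.5 MODIFIER variants. These 3 neighbourhoods were compared as descriptions with no test.

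By chromosome, coding variants as counts differed on none of 20 chromosomes (0% past an adjusted exact permutation test), although 17 passed without A9 and B5. As a share of each tumour's coding variants 1 chromosome of 20 passed (5%). Chromosome 13 held 2.63, 2.54, 2.66, 2.49, 2.71 and 2.13 per 100 coding variants in gel tumours and 3.16, 3.33, 3.44, 3.07, 2.73 and 3.22 in host tumours. The experiments did not overlap, with A8 at 2.71 and B5 at 2.73 next to each other (means 2.53 ± 0.209 and 3.16 ± 0.248, exact permutation p = 0.00216, adjusted 0.0433; p = 0.00794 without A9 and B5). Of the 31 host blocks (3.05% of all blocks tested), 4 lay on chromosome 13, beside 3 each on chromosomes 4, 10 and 11. Blocks are sums of the same coding counts as this share, so they give no further support. The 4 were Cts3 to Prxl2c, which includes Ercc6l2, Zfp65 to Irx4, Gm45623 to Spata31d1b and Zfp708 to Zfp738, a cluster of zinc finger genes. Of the 20 genes of Zfp708 to Zfp738, 18 belong to multigene families or are predicted gene models, so its counts are uncertain gene by gene.

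Genes with textbook differences between laboratory strains were looked at as a list of 20 gene models, of which 16 were altered and 12 passed the filter on low counts. Their protein-altering variants summed to 14 to 26 in gel tumours, with a median of 17.5, and to 20 to 48 in host tumours, with a median of 29.5. The means were 18.5 ± 4.28 and 31.7 ± 10.9 (SD, n = 6 each), a ratio of 1.71, beside 1.26 for all protein-coding genes. The median log2 fold change of the 12 was -0.64, or -0.34 scaled, beside -0.34 and -0.06 over all 6830 genes tested. At an unadjusted p under 0.05, 0 were higher in gel and 2 in host tumours, beside 0.673% and 5.39% of all genes tested, and both of these are models of Nnt, which the files list under 2 identifiers with identical counts that both enter the sum. Nnt, the mitochondrial transhydrogenase that is deleted in part in C57BL/6J, had 0 in every gel tumour and 5, 5, 0, 1, 0 and 1 in host tumours, so B3 and B5 were like the gel tumours. Mtor, the growth kinase, had 8, 11, 10, 9, 13 and 9 against 20, 12, 9, 13, 11 and 22, with overlap. Disc1, a scaffold protein of neurons in which several strains carry a deletion, had 0, 4, 0, 3, 1 and 1 against 6, 6, 1, 0, 6 and 2. The pigment genes gave no such contrast: Tyr, which is mutated in albino strains such as Balb/c, had 1 variant in A2 and 0 in the other 11 tumours, and Tyrp1 was altered in 2 tumours of each experiment and at 0 in 8 of the 12. All 12 carry the Balb/c label, yet neither Tyr nor Tyrp1 had a variant in all of them. Mtor and Nlrp1a, the latter named after its values were seen, had protein-altering variants in every tumour. Nlrp1a had 2 in each gel tumour and 4, 4, 2, 3, 2 and 4 in host tumours. Without positions, whether textbook alleles are among these variants was not tested. None of the 20 models separated the 6 gel from the 6 host tumours.

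Other gene groups mostly followed the overall excess of host tumours, and no list member passed the test across all genes. Counts of members at an unadjusted p under 0.05 are to be read against the shares over all genes tested, 0.673% higher in gel and 5.39% higher in host tumours. Genes of adhesion and mechanosignalling, 19 of 39 tested, summed to 19, 10, 26, 20, 15 and 18 in gel and 49, 36, 38, 15, 26 and 38 in host tumours, a ratio of 1.87 between the means. B4 and B5 lay in the gel range. Their median log2 fold change was -0.94, or -0.69 scaled, with 0 higher in gel and 3 higher in host tumours at an unadjusted p under 0.05 (5.39% of all genes were higher in host). The integrin gene Itga3 had 0, 0, 1, 0, 0 and 0 against 9, 0, 2, 7, 1 and 3, and Rock2, a kinase that drives actomyosin contraction, had 2, 0, 0, 0, 0 and 0 against 5, 2, 4, 0, 3 and 1. Collagen and matrix genes, 33 of 50 tested, averaged 85.8 ± 24.7 and 108 ± 38.6, with 0 higher in gel and 4 higher in host tumours at an unadjusted p under 0.05 (0.673% and 5.39% of all genes). Among them Hspg2, which encodes the basement membrane proteoglycan perlecan, had 8, 16, 2, 2, 1 and 2 against 13, 14, 24, 14, 2 and 10.

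Ferroptosis and antioxidant genes, 15 of 40 tested, averaged 10.8 ± 3.87 in gel and 18.2 ± 6.49 in host tumours, with a median log2 fold change of -0.75 and -0.47 scaled. Tfrc, the transferrin receptor that takes up iron, had 2, 1, 0, 3, 2 and 3 against 3, 3, 5, 4, 6 and 3 and was the 1 member at an unadjusted p under 0.05, higher in host tumours; with 15 members tested this is near the 5.39% of all genes. Macrophage and myeloid genes averaged 13.5 ± 4.09 and 18.5 ± 5.96, with none at that level. In the double-strand break repair list, 14 of 34 tested, the means were 20.2 ± 4.07 and 21.7 ± 4.18, and the median log2 fold change of 0.03 (0.34 scaled) lay above that of all genes. Xrcc4, a factor of end joining, had 0 in every gel tumour and 2, 1, 2, 0, 0 and 1 in host tumours. Mismatch repair genes and replicative polymerases, 8 of 11 tested, averaged 24.5 ± 5.01 in gel and 23.2 ± 3.92 in host tumours, with a median log2 fold change of 0.15 and 0.43 scaled. Msh6, a mismatch recognition subunit, had 13, 17, 8, 12, 12 and 11 against 13, 15, 10, 9, 9 and 9. Base excision repair genes averaged 6.50 ± 1.76 and 9.67 ± 4.84, nucleotide excision repair and translesion genes 19.5 ± 3.45 and 21.0 ± 5.25, and p53 and checkpoint genes 6.17 ± 0.753 and 8.50 ± 2.88, all with 0 members at an unadjusted p under 0.05.

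Known mammary tumour drivers, 19 of 38 tested, averaged 63.8 ± 4.83 in gel and 80.3 ± 15.9 in host tumours, at 0.627% and 0.630% of all protein-altering variants. Arid1a, a subunit of the SWI/SNF chromatin remodelling complex, had 10, 12, 9, 8, 10 and 13 against 20, 30, 15, 8, 7 and 11. Very long genes, 34 of 37 tested, averaged 134 ± 11.3 and 160 ± 27.4. Their members pointed both ways at an unadjusted p under 0.05: Dnah8, a heavy chain of axonemal dynein, was higher in host tumours (2, 4, 3, 4, 3 and 3 against 9, 9, 10, 4, 1 and 7), and Ttn, which encodes the sarcomere spring titin, was higher in gel tumours (6, 5, 6, 12, 6 and 13 against 2, 3, 5, 4, 9 and 6). Both overlapped between experiments.

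Among multigene families, described only as sums because similar copies can share reads, taste receptors averaged 37.3 ± 5.16 in gel and 60.2 ± 22.4 in host tumours. Serpins, inhibitors of serine proteases, averaged 41.3 ± 7.55 and 58.0 ± 8.81, and killer cell lectin-like receptors of natural killer cells 15.7 ± 2.25 and 25.0 ± 9.63. Olfactory receptors averaged 371 ± 28.0 and 438 ± 73.7, vomeronasal receptors 116 ± 34.2 and 151 ± 53.8, zinc finger genes 251 ± 33.2 and 326 ± 84.7, and H2 histocompatibility genes 37.3 ± 9.03 and 44.3 ± 12.3. Cytochrome P450 genes went the other way by a small margin, with 77.5 ± 6.53 in gel and 75.2 ± 12.2 in host tumours and a median log2 fold change of 0.05. Every family overlapped between the experiments.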

How the data were processed

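Tables of whole-number counts of variants per transcript, written by snpEff per the file headers and deposited by the authors, were used for 12 tumours. The build was GRCm39, with GATK, SAMtools 1.19.2 and BWA 2.2.1 named in the submitters' processing notes; how variants were called and filtered, and whether the tails served as normals, is not given in the sources used here. Per the labels, exons were captured with a SureSelectXT mouse kit and read as 150 bp pairs at a stated depth above 50x.

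For each protein-coding gene and class the maximum over transcripts was taken, and unlisted genes were set to 0. Rows with a blank biotype (9.23% to 9.96% of a table) were left out. Gene order came from a GRCm38.p6 RefSeq table used only for order and names, which matched 20873 of 21312 symbols (97.9%); no coordinates are given.

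Genes with a sum of at least 3 and blocks of 20 genes with a sum of at least 12 were tested with edgeR 4.0.16 in R 4.3.3 (quasi-likelihood, 4 group means, the mean of soft and stiff minus that of WT and KO hosts, equal library sizes, Benjamini-Hochberg, threshold 0.05). The SE, not given by edgeR, was approximated by dividing the log2 fold change by the root of F. DESeq2 1.42.0 was an alternative. Burdens, classes with a mean of at least 10, chromosomes and similarity were compared by two-sided exact permutation over 924 assignments. The tests were tried on simulated data.

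Named genes are Trp53, Gpx4 and Lyz2; up to 12 called genes per direction without overlap; up to 8 all-or-none genes per direction; up to 3 members of each list with the largest mean difference; and up to 4 genes in each of up to 4 called blocks per direction. Not all are printed, a few items are left unreported, and genes outside this rule are marked. Of the lists, skint genes, paired immunoglobulin-like receptors, keratins, keratin-associated proteins, defensins, clustered protocadherins, mucins, interferon-induced families and predicted genes are summarised in the closing section. The members and lists were chosen with earlier results of these data known.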

Additional observations from a re-analysis of the deposited data

Results flagged for a closer look

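In 76 groups of 6 tumours the highest or lowest value was compared with the rest. Chance flags about 1 in 20 groups, and 5 stood out. A9 had 13.6 HIGH variants per 100 coding variants, where the other gel tumours had 16.2 to 17.1. A9 also had 78 conservative in-frame insertions against 114 to 128. B5 had 14.2 HIGH variants per 100 coding variants, where the other host tumours had 16 to 17, and 17 stop-lost variants against 34 to 42. A2 had 12 coding variants in the block Des to Ap1s3, where the other gel tumours had 47 to 59.

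Outside the main measurement, rows with a blank biotype held MODIFIER variants at a mean of 111056 ± 31592 in host tumours and 74853 ± 10884 in gel tumours (SD, n = 6 each), with overlap (exact permutation p = 0.0325). The ratio of 1.48 compares with 1.38 for protein-coding genes.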

How the results depend on the processing

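For protein-altering variants per 100 MODIFIER variants, every alternative with more than 3 tumours a side passed, as did the similarity within experiments. Within soft and WT-host tumours the similarity difference was 0.0222 and could not pass, since 3 against 3 allows no exact permutation p below 0.1. The totals depended on the scale: per 100 MODIFIER variants gel tumours were higher, by 0.376 for coding, 0.221 for protein-altering and 0.0612 for HIGH variants. Leaving out 1 tumour gave differences in coding variants from -5752 to -3171, in protein-altering variants from -3551 to -1906, in HIGH variants from -1018 to -500 and in MODIFIER variants from -185691 to -113463. With 1 tumour left out, protein-altering and HIGH variants passed only without B5, and coding variants only without B4 or B5. Without A9 and B5 the coding, protein-altering and HIGH differences were -5425, -3307 and -886 and passed. The MODIFIER difference of -146157 was -184314 between soft and WT-host and -108000 between stiff and KO-host tumours and did not pass in either. It also missed 0.05 without A1, A7, A8, A9, B1, B2, B3 or B6.

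Effect classes past the test numbered 0 as counts, 2 per 100 coding variants and 17 without A9 and B5, with a range of 0 to 19 leaving out 1 tumour, the highest without B5. Chromosomes numbered 0, 1, 17 and 0 to 18 in the same order. Host all-or-none genes numbered 7, or 44 at 5 of 6 tumours, 26 without A9 and B5 and 8 to 22 leaving out 1 tumour. On the gel side there were 0, or 5 at 5 of 6 tumours, 1 with the median over transcripts and 0 to 2 leaving out 1 tumour.

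Genes called numbered 0, or 1 with DESeq2, and 0 to 3 leaving out 1 tumour, the 3 without A2. Of blocks, 34 were called, against 15 at 10 genes a block, 59 at 50 genes, 13 scaled to totals (5 higher in gel, 8 in host tumours), 13 with the experiment as the only term and 63 without A9 and B5. Alternatives chosen after seeing the data gave 16 without A9 and B5 when scaled, 11 for soft against WT host, 3 for stiff against KO host and 5 with DESeq2. Leaving out 1 tumour gave 6 to 178. Smaller blocks and fewer tumours hold fewer counts; otherwise the cause was not tested. None of the 7 blocks and 14 genes refitted one by one changed direction.

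Replicate numbers are shared only by soft and WT-host tumours. Their deviations correlated at -0.0111, -0.0183 and 0.0459 for equal numbers, and from -0.0325 to 0.0444 for unequal ones, so the numbers did not pair the tumours, and a fit with the replicate block called 0 genes, as without it.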

Other observations

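The families left out of the comparison had the higher mean in host tumours in their summed protein-altering variants, though not in all their members. Keratin-associated proteins, which build the hair shaft, averaged 10.0 ± 2.53 in gel and 15.8 ± 2.79 in host tumours, mucins 38.0 ± 5.51 and 52.2 ± 19.1, interferon-induced families 49.0 ± 6.96 and 63.2 ± 16.7, and predicted gene models 417 ± 101 and 554 ± 177 (SD, n = 6 each). Keratins averaged 24.2 ± 2.23 and 28.0 ± 8.65, defensins 10.5 ± 5.43 and 14.3 ± 9.50, clustered protocadherins 51.0 ± 11.6 and 60.2 ± 13.4, and skint genes 6.33 ± 4.89 and 10.0 ± 5.76. Paired immunoglobulin-like receptors were close, at 28.5 ± 5.28 and 28.8 ± 6.91. The experiments overlapped in each of these families. Of keratin-associated proteins 5 members had the higher mean in host and 8 in gel tumours, and of keratins 14 and 15. In the other families more members were higher in host tumours. The median log2 fold change was 0.00 in keratins, 0.04 in defensins, 0.11 in clustered protocadherins and 0.02 in paired immunoglobulin-like receptors. It was negative in the other families, beside -0.34 over all genes tested.

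The difference in coding variants (gel minus host) was lower for soft against WT host than for stiff against KO host, with a difference between them of -3072 that did not pass (permutation of labels within experiments, 400 assignments, exact p = 0.47).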
